A study of Mus musculus with 20 samples.

Results

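The genes described here encode tissue inhibitors of metalloproteinases (Timp1, Timp2 and Timp3), matrix metalloproteinases (Mmp13, Mmp14 and Mmp19) and ADAMTS proteases (Adamts1, Adamts4 and Adamts9). They were taken by their gene symbol and make up 9 of the 37681 genes in each count table. Livers were collected from male C57/BL6 mice aged 12 weeks, 4 h after an intraperitoneal injection of IL-1β at 20 μg/kg (5 mice) or of saline (5 mice, referred to as untreated). The labels name no engineered allele in either group, and each library came from 1 mouse. Each mouse's RNA was sequenced on an Illumina HiSeq and on an Ion Torrent Proton, and the reads of each platform were aligned with GSNAP, STAR and STAR followed by Bowtie2 (STAR + Bowtie2), which gave 6 tables of 10 libraries each. The Illumina STAR table is described first, and the other 5 tables served as checks. Because the tissue was whole liver, fewer cells of a type and less RNA per cell cannot be told apart in any value below.

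Matrix metalloproteinases (MMPs) are zinc-dependent enzymes that cut collagens, laminins and other proteins of the extracellular matrix, and are made as inactive precursors. ADAMTS proteases are secreted relatives with thrombospondin repeats, several of which cut large proteoglycans such as aggrecan and versican. TIMPs bind the active site of these enzymes and block them. In liver, stellate cells, endothelial cells, macrophages and infiltrating neutrophils are known sources of TIMPs and MMPs, and Timp1 is known as a gene induced by inflammatory cytokines.

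The Illumina libraries held 10568530 to 12008799 gene reads and the Ion Torrent libraries 12199528 to 16439683. Hepatocyte markers, led by albumin, summed to 64817 to 104409 CPM (counts scaled to a common library size) in the Illumina STAR table, and all 8 of them were read in both groups. Once the mean of the treatment was taken out, the 2 libraries of a mouse correlated across genes at 0.591 to 0.746 for 9 mice, and at 0.197 to 0.249 for the untreated mouse titled UNT_9584. The Illumina library of UNT_9584 correlated most with the Ion Torrent library of another mouse. The platform terms are therefore also given without UNT_9584, as are Ion Torrent fold changes and read ratios. So are the untreated Timp1 and Timp3 shares and the untreated Timp2 and Timp3 levels. In the Illumina STAR table, 7116 of the 15578 tested genes (45.7%) changed with IL-1β at an adjusted p under 0.05 in edgeR's quasi-likelihood test, 3541 of them higher and 3575 lower. Without TMM, the scaling that centres the libraries on their common genes, the split was 2746 higher and 4335 lower, and the fold changes shifted by a median of -0.13 on the log2 scale, over the 10841 tested genes with a mean of 20 reads or more. The rank-sum test, run on the deposited counts without TMM or library scaling, called 2142 higher and 3790 lower (38.1% in all). In that table the treated libraries held 10568530 to 10655860 reads and the untreated 10887640 to 11046256. A call was thus common, and these shares are printed beside the members' counts.

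Of the 9 members, 8 had enough reads to be tested, and all 8 changed with IL-1β. Timp1, Adamts1, Adamts4 and Adamts9 rose, while Timp2, Timp3, Mmp14 and Mmp19 fell. The background was 22.7% of tested genes in the upward and 22.9% in the downward direction. The members were chosen with earlier results of these data known, so their count beside these shares is no test of the set. In 7 of the 8 the values of treated and untreated mice did not overlap, which was so for 33.9% of tested genes, and Mmp14 was the exception. For Timp1 and Adamts4, untreated mice had 0 to 2 and 0 to 1 reads. These 2 genes passed the filter of 5 reads in 5 samples through the treated mice. Their calls and the separation of their groups were thus largely set by that filter. Within the TIMPs the direction differed between members, and within the ADAMTS members it was the same. Mmp13 had too few reads in all 6 tables.

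**Figure D1:**
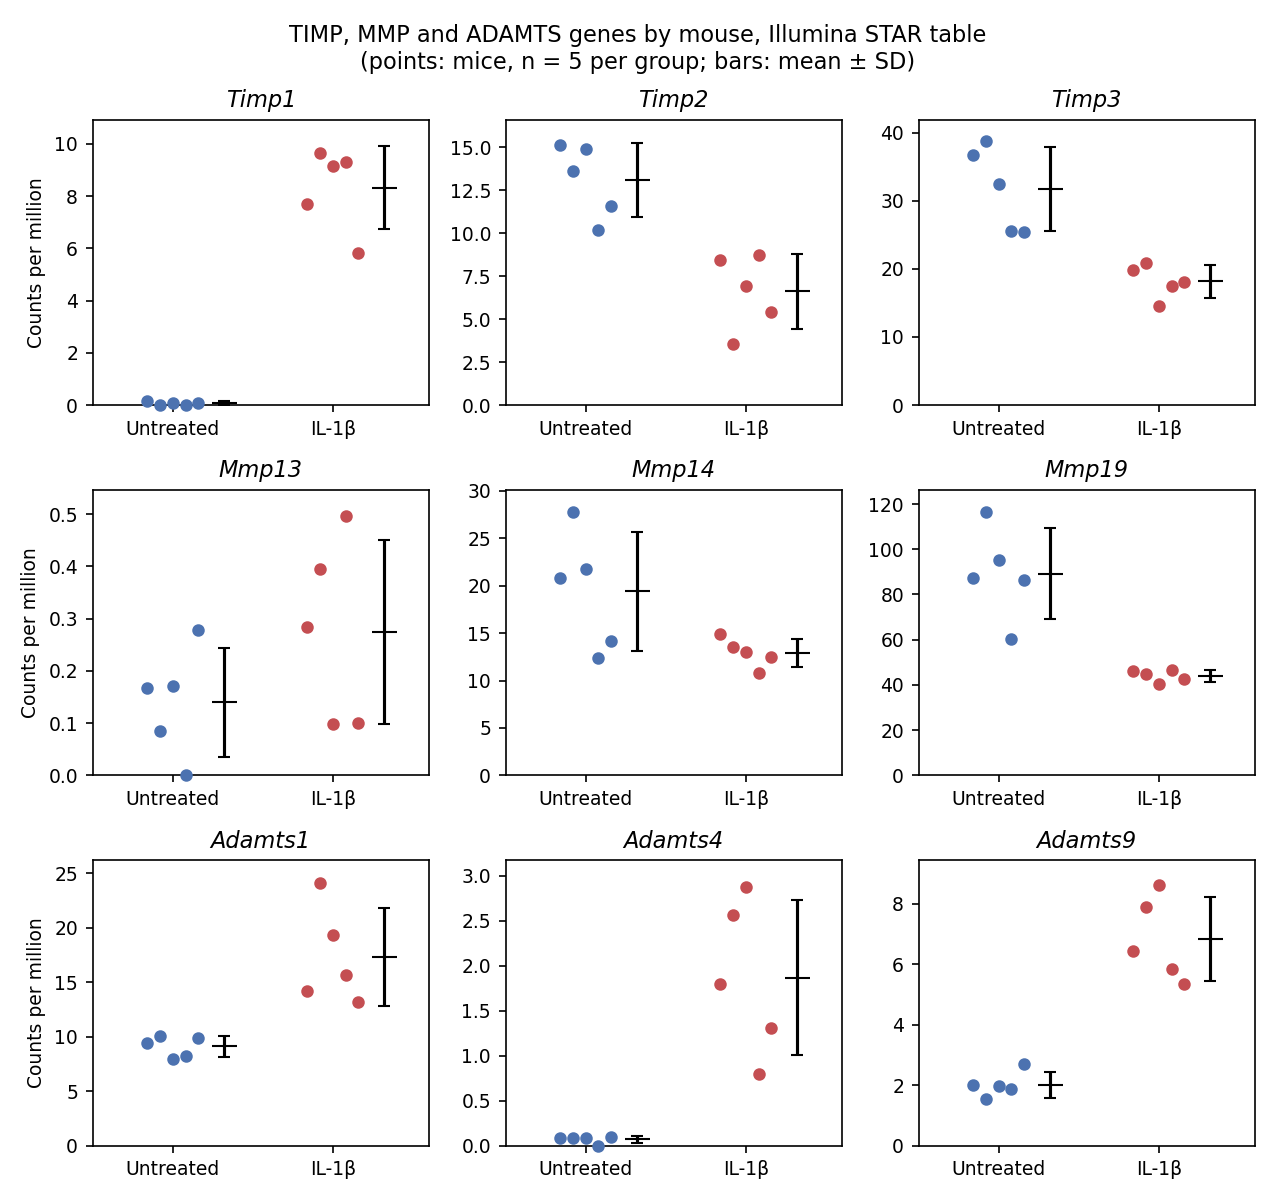
CPM of the 9 members in each mouse of the Illumina STAR table (vertical axes, each starting at 0; n = 5 untreated in blue and n = 5 IL-1β in red; black bars, mean ± SD). Timp1 and Adamts4 were near 0 in untreated mice, Timp2, Timp3 and Mmp19 were lower in every treated mouse than in any untreated mouse, and the groups overlapped for Mmp13 and Mmp14.

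The DNA before the annotated starts is shown for the members that rose and for Mmp13, whose known regulation in other cells runs through AP-1, to set the letters beside the direction of change. Promoter windows of 300 bases, 250 before and 50 after the start, were found in RefSeq (GRCm38.p6) for 7 of the 9 members. Those of Adamts4 and Mmp19 are not shown. Each of the 7 windows matched the mm9 genome exactly at 1 place, and mm9 coordinates of the 250 upstream bases are given. Sequences run 5′ to 3′ along the gene, and capitals mark a motif match.
Timp1 (chrX:20447042-20447291, plus strand): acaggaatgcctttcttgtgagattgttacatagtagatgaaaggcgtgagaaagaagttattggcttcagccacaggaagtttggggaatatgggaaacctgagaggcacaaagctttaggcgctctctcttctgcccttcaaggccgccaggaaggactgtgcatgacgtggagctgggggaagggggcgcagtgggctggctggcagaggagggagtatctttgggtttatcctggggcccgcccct
Adamts1 (chr16:85803359-85803608, minus strand): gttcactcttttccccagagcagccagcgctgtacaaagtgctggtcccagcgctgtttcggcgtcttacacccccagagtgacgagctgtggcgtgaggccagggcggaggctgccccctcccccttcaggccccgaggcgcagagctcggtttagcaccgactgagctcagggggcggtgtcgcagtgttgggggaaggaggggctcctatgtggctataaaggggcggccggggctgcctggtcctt
Adamts9 (chr6:92893529-92893778, minus strand): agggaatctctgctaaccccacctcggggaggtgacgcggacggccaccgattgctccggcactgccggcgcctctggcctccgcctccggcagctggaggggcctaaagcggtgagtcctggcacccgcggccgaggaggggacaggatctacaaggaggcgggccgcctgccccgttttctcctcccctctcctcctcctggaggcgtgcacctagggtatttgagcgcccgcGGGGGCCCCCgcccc
Mmp13 (chr9:7272264-7272513, plus strand): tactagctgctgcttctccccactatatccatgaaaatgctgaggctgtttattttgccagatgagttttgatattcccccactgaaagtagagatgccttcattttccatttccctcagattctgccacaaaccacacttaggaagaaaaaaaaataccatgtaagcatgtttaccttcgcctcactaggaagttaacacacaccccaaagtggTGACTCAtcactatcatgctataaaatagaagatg

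The 4 motifs searched on both strands were AP-1 (TGANTCA), STAT (TTCNNNGAA), C/EBP (TTGCNNAA) and the NF-kB motif by name. AP-1 matched in 1 of the 7 windows, that of Mmp13, at bases -35 to -29 from the start, beside 7.81% of all 32851 promoters in the table. NF-kB matched in 1 window, that of Adamts9, at bases -15 to -6, beside 8.46% of all promoters. STAT and C/EBP matched in 0 of the 7 windows, beside 8.30% and 10.8% of all promoters. The Timp1 window, for the gene with the strongest change, held none of these letters. The windows of Timp2, Timp3, Adamts1 and Adamts9 were rich in G and C (64.7% to 70.0%, against a median of 52.7% over all promoters), whereas that of Mmp13 had 43.7%. These matches describe the letters in short windows and say nothing of which factor was bound.

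Timp1, a secreted inhibitor of most soluble MMPs, lies on the X chromosome (mm9 chrX:20447292-20451861, GENCODE vM1, as for the positions that follow). It gave 2, 0, 1, 0 and 1 reads in the untreated mice. In the treated mice it gave 81, 98, 92, 94 and 58 reads. Timp1 was therefore nearly unread in untreated liver and present in each treated liver, and the groups were far apart. The summed reads, 423 against 4, had a ratio of 120 after library scaling (46.4 to 441, exact binomial 95% interval, which covers counting error only). The fitted log2 fold change was 6.68 ± 0.37 (SE, n = 5 against 5, edgeR adjusted p = 4.27e-09). In the Ion Torrent STAR table the untreated mice had 1 to 4 reads and the treated mice 100 to 152, a ratio of 56.4 (32.8 to 106), or 53.7 (29.8 to 108) without UNT_9584. Over the 6 tables the log2 fold change of Timp1 lay between 5.75 and 7.12. The gene lies inside Syn1, a neuronal synapsin read from the opposite strand, with 0 shared exon bases, and Syn1 had 6 reads in the treated and 14 in the untreated mice.

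Timp2 (chr11:118162383-118217054), which inhibits MMPs and also helps Mmp14 to activate the Mmp2 precursor at the cell surface, went the other way. Its level in untreated mice was 15.1, 13.6, 14.9, 10.2 and 11.6 CPM. In treated mice it was 8.44, 3.55, 6.95, 8.72 and 5.44 CPM. Every treated mouse was below every untreated mouse, and ILB_9578 was the lowest. The log2 fold change was -0.98 ± 0.21 (edgeR adjusted p = 0.00128), a 1.98-fold lower level. It lay between -0.98 and -0.76 over the 6 tables, and the groups overlapped in the Illumina STAR + Bowtie2 table only.

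Timp3 (chr10:85763117-85812251) is the matrix-bound member of the family and also inhibits ADAM and ADAMTS enzymes. Untreated mice had 36.8, 38.7, 32.4, 25.5 and 25.5 CPM. Treated mice had 19.8, 20.9, 14.6, 17.4 and 18.0 CPM. The groups did not overlap, and the untreated mice were split into 3 of 32.4 CPM and above and 2 of 25.5 CPM. Timp3 fell by 0.81 on the log2 scale (SE 0.14, edgeR adjusted p = 0.000278), and its change was -0.98 to -0.81 over the 6 tables. Timp3 lies within Syn3, on the opposite strand, and the 2 genes share 1733 exon bases. Syn3 had 16 reads in treated and 48 in untreated mice, against 923 and 1836 for Timp3. Whether the counting used strand is not given in the sources used here.

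The make-up of TIMP transcripts therefore turned over. On a per-length scale (RPKM, the CPM divided by the exon length in kilobases), Timp1 made up 1.02% ± 0.99 (SD, n = 5) of the summed level of Timp1, Timp2 and Timp3 in untreated mice and 70.1% ± 5.08 in treated mice. The share of Timp3 went from 53.1% ± 3.08 to 17.1% ± 3.48, and that of Timp2 from 45.9% ± 2.44 to 12.9% ± 3.88. The summed TIMP level was 7.34 ± 1.28 RPKM in untreated and 13.3 ± 1.85 RPKM in treated mice, and the lowest treated mouse (10.2) was above the highest untreated mouse (8.59). In the Ion Torrent STAR table the share of Timp1 went from 4.60% ± 1.88 (4.65% ± 2.17 without UNT_9584) to 82.6% ± 3.39. The share of Timp3 differed between platforms in untreated mice, at 53.1% on Illumina and 23.6% ± 3.60 on Ion Torrent (23.8% ± 4.12 without UNT_9584), so the size of each share is specific to its table. Timp4, the fourth family member, had 0 reads in the Illumina STAR table.

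**Figure D2:**
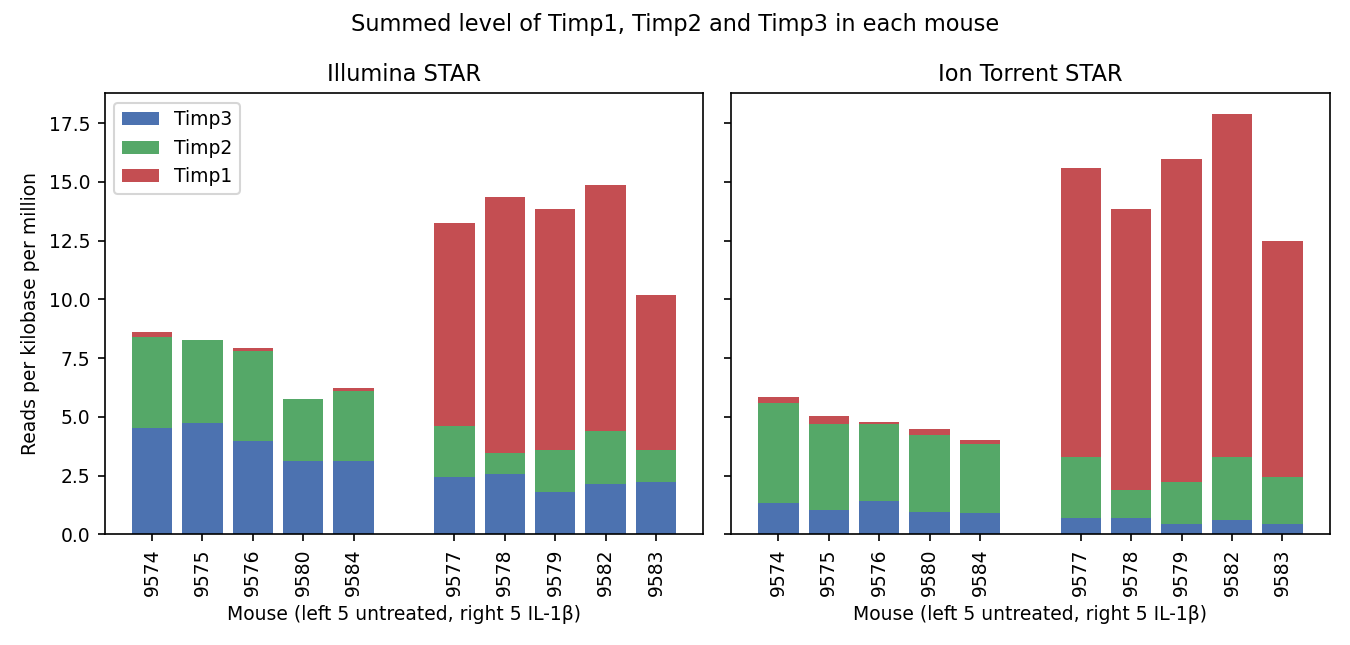
Summed level of Timp1, Timp2 and Timp3 in RPKM (vertical axis, starting at 0) in each of the 10 mice, for the STAR tables of both platforms. Timp1 took 70.1% of the sum in treated mice of the Illumina table and 82.6% in the Ion Torrent table, and the summed level was higher in treated mice in both.

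Mmp19 (chr10:128228009-128237880), a secreted protease that acts on basement membrane proteins, had the highest level of the 9 members in untreated liver. Untreated mice had 87.2, 116, 95.4, 60.3 and 86.4 CPM. Treated mice had 46.2, 44.8, 40.2, 46.5 and 42.7 CPM. The treated mice lay close together and all below the untreated mice, among which UNT_9580 was the lowest. Mmp19 fell by 1.02 on the log2 scale (SE 0.14, edgeR adjusted p = 2.83e-05), and its change was -1.25 to -1.01 over the 6 tables. Its end shares 789 exon bases with 1110012D08Rik on the opposite strand, which had a mean of 47.2 reads per library.

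Mmp14 (chr14:55050441-55060095), the membrane-anchored MMP that cuts collagen and activates other MMP precursors, gave 20.8, 27.8, 21.8, 12.3 and 14.2 CPM in untreated mice. Treated mice had 14.9, 13.5, 13.0, 10.8 and 12.5 CPM. UNT_9580 and UNT_9584 lay within the treated range, and the other 3 lay above it. The log2 fold change was -0.59 ± 0.19 (edgeR adjusted p = 0.0205). The groups overlapped in all 6 tables, and the rank-sum test did not call the gene in the Illumina STAR table (adjusted p = 0.0722). Without UNT_9575 the change was -0.42 and was not called (edgeR adjusted p = 0.0662). The fall in Mmp14 was thus the least firm of the 8, although edgeR called it in all 6 tables (-0.81 to -0.59).

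Mmp13 (chr9:7272514-7283333), a collagenase best known from cartilage, was scarcely read. Untreated mice had 2, 1, 2, 0 and 3 reads, and treated mice 3, 4, 1, 5 and 1. The groups overlapped, and the ratio of summed reads, 14 against 8, was 1.98 (0.775 to 5.45, exact binomial 95% interval). In the Ion Torrent STAR + Bowtie2 table the sums were 18 against 6, a ratio of 3.30 (1.25 to 10.1). When no filter on low counts was applied to the Illumina STAR table, edgeR gave 0.93 ± 0.65 (adjusted p = 0.293). A change in Mmp13 was thus not detectable at the depth of that table.

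Adamts4 (chr1:173180552-173190768), an aggrecanase that also cuts versican, was close to the limit of reading in untreated liver, with 1, 1, 1, 0 and 1 reads. The treated mice had 19, 26, 29, 8 and 13 reads. Every treated mouse was above every untreated mouse, and the treated mice varied widely among themselves. The ratio of summed reads, 95 against 4, was 26.9 (10.2 to 101, exact binomial 95% interval), and the fitted log2 fold change was 4.53 ± 0.53 (edgeR adjusted p = 6.23e-06). In the Ion Torrent STAR table the sums were 139 against 12 reads, a ratio of 12.9 (7.18 to 25.7), or 13.9 (7.12 to 31.1) without UNT_9584.

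Adamts9 (chr6:92722693-92893486), which cuts aggrecan and versican, had 1.997, 1.53, 1.97, 1.87 and 2.69 CPM in untreated mice. Treated mice had 6.45, 7.88, 8.64, 5.85 and 5.33 CPM. The groups were well apart, and Adamts9 rose by 1.76 ± 0.20 on the log2 scale (3.39-fold, edgeR adjusted p = 4.40e-06). Its exons overlap those of 2 genes on the opposite strand, A730049H05Rik and Gm15737, which had means of at most 0.6 reads in any table.

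Adamts1 (chr16:85794072-85803358), a protease of versican and aggrecan with anti-angiogenic activity, was the ADAMTS member with the highest level in untreated mice, at 9.40, 10.04, 7.98, 8.26 and 9.85 CPM. Treated mice had 14.2, 24.1, 19.4, 15.7 and 13.2 CPM. The groups did not overlap, and ILB_9578 was the highest. Adamts1 rose by 0.93 ± 0.16 on the log2 scale (1.90-fold, edgeR adjusted p = 0.000295), the smallest of the 3 ADAMTS increases. Its log2 fold change lay between 0.93 and 1.01 over the 6 tables, that of Adamts9 between 1.75 and 2.23 and that of Adamts4 between 3.52 and 4.53.

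Per length, the order in untreated mice of the Illumina STAR table was Mmp19 (26.1 ± 5.91 RPKM), Mmp14 (7.47 ± 2.40), Timp3 (3.90 ± 0.76), Timp2 (3.36 ± 0.55), Adamts1 (1.72 ± 0.18) and Adamts9 (0.161 ± 0.034). Timp1 (0.0777), Mmp13 (0.0525) and Adamts4 (0.0144) were lowest. The ranges of Timp3 and Timp2 overlapped, as did those of each neighbouring pair from Adamts9 down. In treated mice Timp1 moved to the second place. The order was Mmp19 (12.9 ± 0.77 RPKM), Timp1 (9.38 ± 1.78), Mmp14 (4.98 ± 0.57), Adamts1 (3.27 ± 0.84), Timp3 (2.23 ± 0.30) and Timp2 (1.70 ± 0.55), with Adamts9 (0.545 ± 0.111), Adamts4 (0.389 ± 0.179) and Mmp13 (0.103 ± 0.066) below. There, Mmp19, Timp1 and Mmp14 were apart from each other, as were Timp2 and Adamts9, and every other pair of neighbours overlapped. In the Ion Torrent STAR table Timp1 was first in treated mice (12.5 ± 1.76 RPKM) and Mmp19 second (6.31 ± 0.58). The platforms gave unlike levels for Timp3 in untreated mice, 3.90 RPKM on Illumina and 1.14 ± 0.23 RPKM on Ion Torrent, and like levels for Timp2, 3.36 and 3.47 ± 0.51 RPKM. Without UNT_9584 the Ion Torrent levels were 1.20 ± 0.22 RPKM for Timp3 and 3.61 ± 0.46 RPKM for Timp2. Tables were normalized separately, so these levels were not tested against each other.

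All 8 tested members were called in the same direction in all 6 tables. Timp1 and Adamts4 passed the read filter through the treated mice, so their calls and separate groups were largely set by it. edgeR called 47.5%, 45.7% and 47.4% of tested genes in the Illumina GSNAP, STAR and STAR + Bowtie2 tables, and 46.4%, 42.1% and 46.7% in the corresponding Ion Torrent tables. The groups of 7 members did not overlap in any of the 6 tables, other than those of Timp2 in the one named above, beside 35.2%, 33.9% and 35.2% of tested genes for Illumina and 33.9%, 31.1% and 33.9% for Ion Torrent. Without UNT_9584 the 8 members stayed called in the Ion Torrent STAR table, with log2 fold changes of 5.68 for Timp1, 3.72 for Adamts4, 2.12 for Adamts9, 1.04 for Adamts1, -0.81 for Timp2, -1.05 for Timp3, -0.79 for Mmp14 and -1.28 for Mmp19. They also stayed called without it in the other 2 Ion Torrent tables, with Timp1 at 5.91 and 5.87 and Mmp14 at -0.71 and -0.77 (GSNAP, then STAR + Bowtie2). The rank-sum test, whose smallest exact p for 5 against 5 is 0.00794, called all but Mmp14 in the 6 tables and Mmp14 in 2 of them. It called 40.1%, 38.1% and 39.8% of tested genes for Illumina and 38.8%, 35.7% and 38.6% for Ion Torrent.

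**Figure D3:**
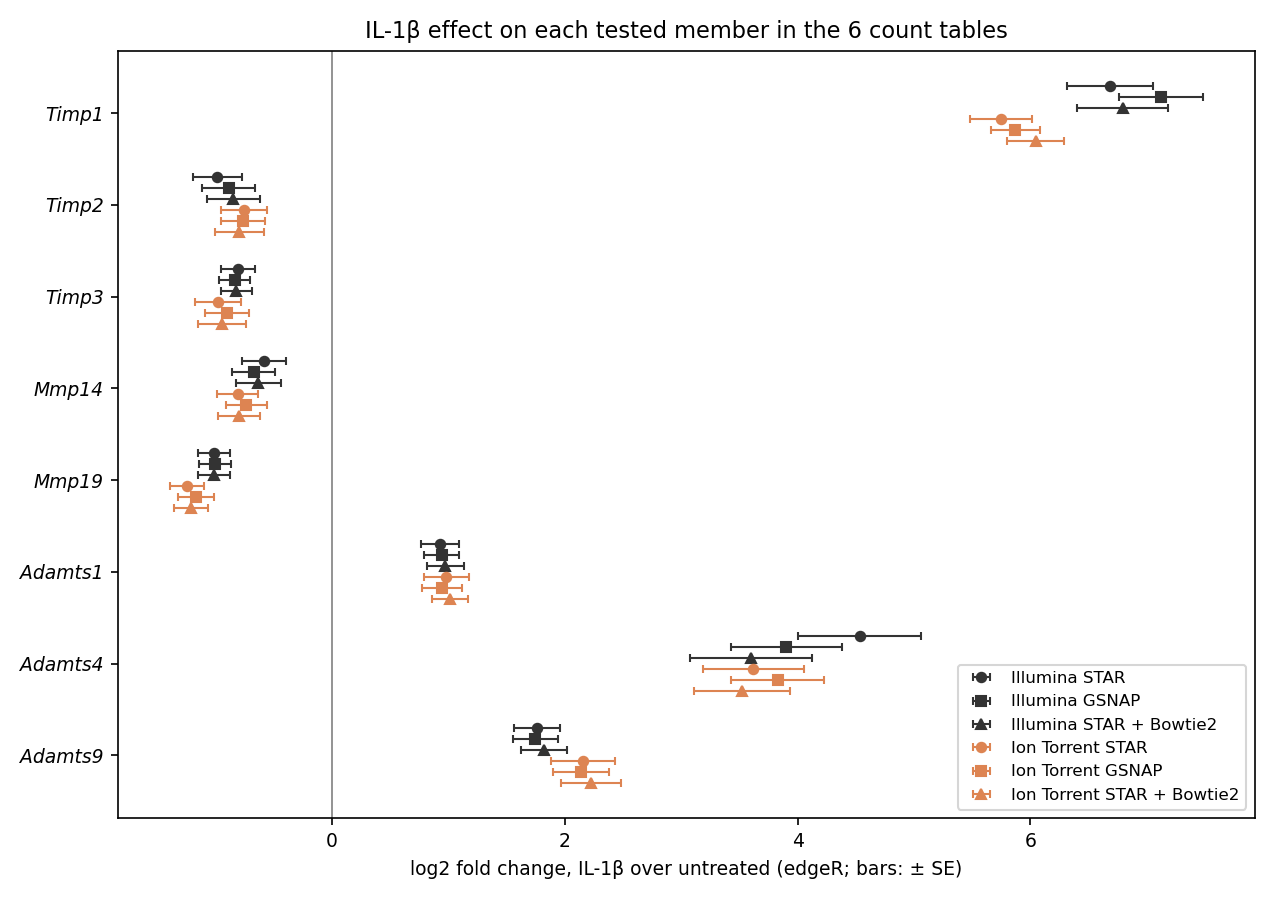
log2 fold change of IL-1β over untreated mice (horizontal axis, edgeR; bars, ± SE) for the 8 tested members in the 3 Illumina tables (dark) and the 3 Ion Torrent tables (orange). Each gene lies on the same side of 0 in all 6 tables, and Timp1 lies between 5.75 and 7.12.

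The platform-by-treatment term asks whether the IL-1β effect on a member differed between Ion Torrent and Illumina libraries of the same mice. None of the 24 terms, 8 members by 3 aligners, passed (smallest edgeR adjusted p = 0.619), beside 0.00642% of tested genes with STAR, 0.0642% with GSNAP and 0.077% with STAR + Bowtie2. At an unadjusted p under 0.05 there were 2 such terms, both for Mmp19, beside 7%, 7.81% and 7.77% of tested genes. With STAR the Mmp19 log2 fold change on Ion Torrent minus that on Illumina was -0.22 ± 0.091 (normal 95% interval -0.40 to -0.042, unadjusted p = 0.0227, adjusted p = 0.696). For Timp1 the difference was -0.93 (95% interval -2.22 to 0.37) and for Adamts4 -0.89 (-2.26 to 0.47). Both of these intervals were wide, and both genes had few untreated reads. For Adamts1 it was 0.07 (-0.21 to 0.35), for Timp3 -0.16 (-0.46 to 0.14), for Timp2 0.24 (-0.06 to 0.54), for Mmp14 -0.23 (-0.51 to 0.05) and for Adamts9 0.40 (-0.11 to 0.90). After adjustment over all tested genes no member's effect was called different between platforms. Without UNT_9584 none of the 24 terms passed either (smallest edgeR adjusted p = 0.562, with 2 at an unadjusted p under 0.05, both for Mmp19), and the Mmp19 term with STAR was -0.23 ± 0.091.

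Beyond the 9 members, 84 genes of 7 lists covered the rest of the TIMP, MMP, ADAMTS, ADAMTS-like and ADAM families, partners of TIMPs and MMPs, and substrates. Of these, 61 were tested, 17 rose, 15 fell and 29 were not called. The called share, 52.5%, was near the 45.7% of all tested genes. Some that rose, among them Mmp7, Mmp8 and Vcan, could pass the read filter in the Illumina STAR table only with treated mice. Some that fell, such as Adamts5, could pass it there only with untreated mice. These lists, too, were chosen with earlier results of these data known. The median log2 fold change was -0.19, beside 0 over all 15578 tested genes.

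Among all 13 tested MMPs, members included, Mmp7, Mmp8, Mmp9 and Mmp12 rose and Mmp2, Mmp14, Mmp15 and Mmp19 fell. The called share was 61.5%, beside 45.7% of all tested genes. Mmp8, the neutrophil collagenase, had 249 reads in treated and 4 in untreated mice (log2 fold change 5.92 ± 0.46, edgeR adjusted p = 1.20e-07). Mmp7, matrilysin, had 417 and 15 reads (4.91 ± 0.30), and Mmp9, the neutrophil and macrophage gelatinase, 158 and 22 reads (2.99 ± 0.50). In the Illumina STAR table the untreated mice alone had too few reads of Mmp7, Mmp8, Mmp9 and Mmp12 to pass the read filter. There these genes could pass only with treated mice, so their calls were largely set by that filter. Mmp15, a membrane-anchored relative of Mmp14, moved the other way and most strongly of the falling MMPs, from 43.8 ± 9.57 to 5.83 ± 1.27 CPM (-2.91 ± 0.18, edgeR adjusted p = 1.49e-08). Mmp2, the gelatinase whose precursor Mmp14 and Timp2 help to activate, fell by 1.38 ± 0.43 (edgeR adjusted p = 0.0161), with overlapping groups.

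Of the 13 tested ADAMTS genes, members included, 6 rose and 5 fell (84.6% called, beside 45.7% of all tested genes). Besides the 3 members, Adamts15, another versican-cutting protease, rose from 0.753 ± 0.474 to 5.82 ± 1.958 CPM (2.94 ± 0.33, edgeR adjusted p = 4.53e-06), and Adamts3 and Adamts12 rose at low read counts. Adamts7, a protease of cartilage matrix proteins, fell by 1.45 ± 0.27. Adamts5, the other main aggrecanase, fell by 2.64 ± 0.37, from 109 to 15 summed reads, and Adamts6, Adamts10 and Adamts13 also fell. The aggrecanases Adamts4 and Adamts5 thus had opposite signs in the same livers. Adamts3, Adamts5, Adamts6, Adamts10, Adamts12, Adamts13 and Mmp12 were named after their values were seen. Of 6 tested ADAMTS-like genes, which lack the protease domain, 2 fell (Adamtsl1 and Adamtsl5) and 4 were not called (33.3% called).

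Of 10 tested ADAM family genes, 4 rose and 1 fell (50% called, beside 45.7% of all tested genes). Adam9 rose from 91.6 ± 9.45 to 246 ± 33.7 CPM (1.42 ± 0.11), and Adam17, which releases TNF and other membrane proteins and is inhibited by Timp3, from 22.1 ± 2.10 to 37.4 ± 4.97 CPM (0.76 ± 0.11, edgeR adjusted p = 6.69e-05). Adam10, its closest relative, rose by 0.42 ± 0.11, and Adam8 rose and Adam23 fell. Of 12 partners and activators, 3 rose, 3 fell and 6 were not called (50% called). Reck, a membrane-anchored inhibitor of MMPs, fell by 1.87 ± 0.21 (edgeR adjusted p = 3.83e-06), as Timp2 and Timp3 did. Pcsk5, a proprotein convertase, rose by 2.04 ± 0.12 (edgeR adjusted p = 5.96e-09). Plaur also rose, and Serpine2 and Pcsk6 fell. Of 12 tested substrates, 3 rose, 2 fell and 7 were not called (41.7% called). Fn1, fibronectin, rose by 0.76 ± 0.10, Tnc rose, and Lamb1 and Bgn fell. Vcan, versican, the shared substrate of Adamts1, Adamts4 and Adamts9, had 146 reads in treated and 5 in untreated mice (4.87 ± 0.50). In the Illumina STAR table Vcan, Adam8 and Plaur could pass the read filter only with treated mice, so their calls were largely set by it. Vcan, Tnc, Lamb1, Bgn, Plaur, Serpine2, Pcsk6, Adam8, Adam23 and the ADAMTS-like genes were named after their values were seen.

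**Figure D4:**
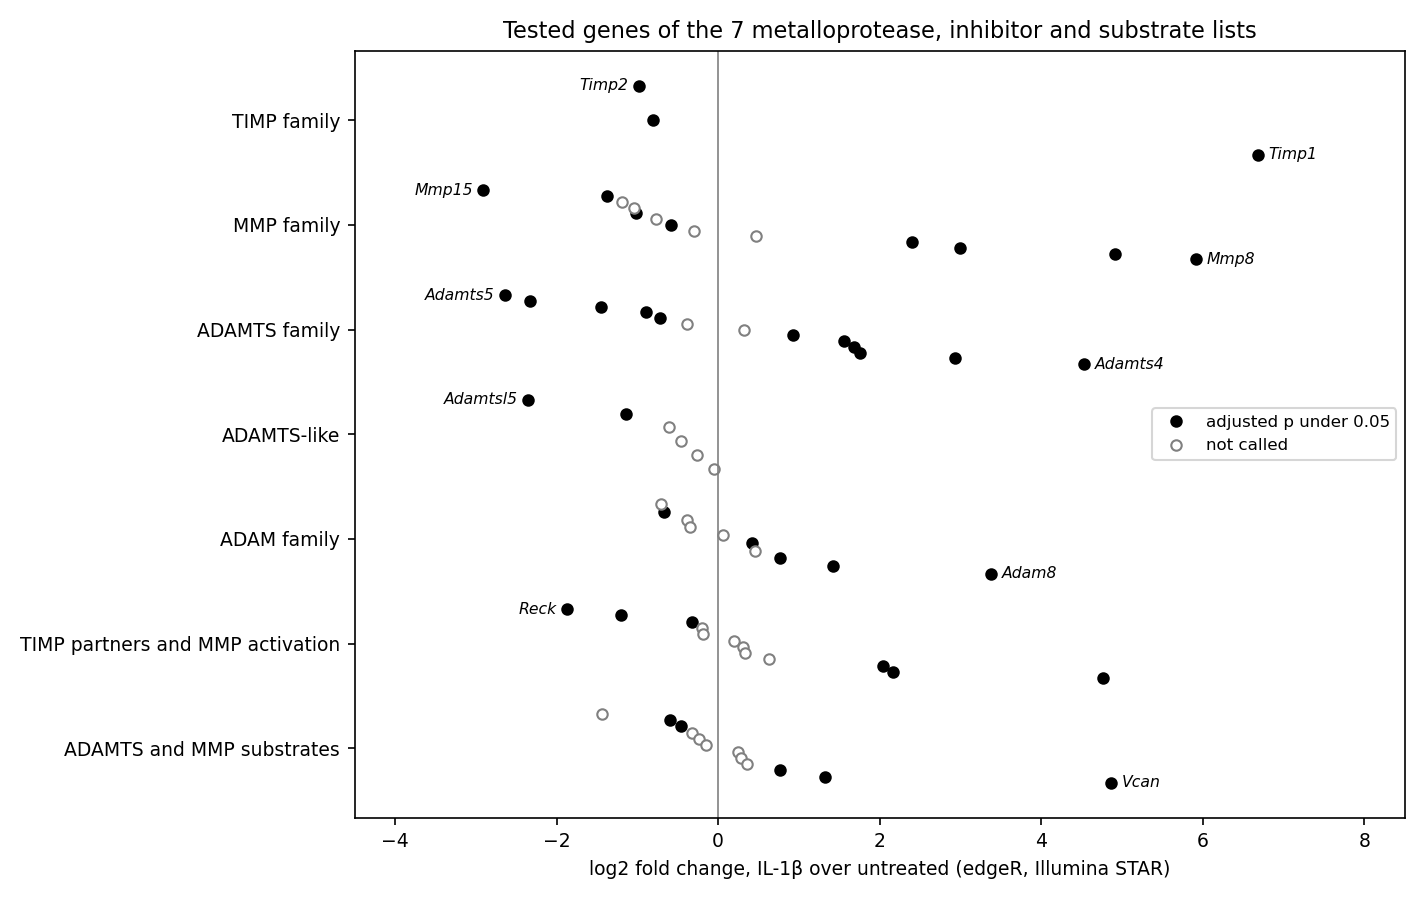
log2 fold change of IL-1β over untreated mice (horizontal axis, edgeR, Illumina STAR) for each tested gene of the 7 lists, members included; filled points had an adjusted p under 0.05 and open points were not called. Labels name called genes at the ends of lists, such as Timp1 at 6.68 and Mmp15 at -2.91.

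The share of tested marker genes called was 50% for the stellate and the Kupffer lists, 60% for the endothelial and 75% for the hepatocyte list. It was 33.3% for lymphocyte and 100% for neutrophil markers, beside 45.7% of all tested genes. Of the neutrophil markers, S100a8, Cxcr2, Ngp and Retnlg passed the read filter through the treated mice, so their calls were largely set by it. In the Illumina STAR table all 7 tested neutrophil markers rose. There the summed level of the 11 listed was 50.4 to 110 CPM in treated and 2.13 to 6.33 CPM in untreated mice. In the Illumina STAR + Bowtie2 table the sums were 83.5 to 139 against 28.8 to 32.6 CPM, and there Ltf alone had 304 to 339 reads per untreated mouse and 321 to 375 per treated mouse. In the Illumina STAR table Ly6g, Mpo, Ngp, Ltf and Camp were at 0 in untreated mice and Elane was at 0 in treated mice, whereas in the Ion Torrent GSNAP table Camp was the only marker at 0 in untreated mice. Among those not tested, Elane had more reads in untreated mice in all 6 tables, and Camp more in treated mice. Ly6g had 12 reads in treated and 19 in untreated mice with Illumina STAR + Bowtie2, and 12 and 28 with Ion Torrent GSNAP. In the other tables Ly6g had more reads in treated mice, and Mpo varied in direction. Of 12 stellate and fibroblast markers, 6 fell and 6 were not called, and their sum was 196 to 322 CPM in treated and 300 to 385 CPM in untreated mice. Of 10 endothelial markers 2 rose and 4 fell (155 to 240 against 180 to 275 CPM), and of 8 Kupffer cell and macrophage markers 1 rose and 3 fell (73.9 to 172 against 133 to 232 CPM). Of 8 hepatocyte markers 2 rose and 4 fell, with sums of 64817 to 78541 CPM in treated and 84382 to 104409 CPM in untreated mice. Of 3 tested lymphocyte markers 1 fell, and the sum of all 6 was 0.805 to 1.69 against 1.42 to 3.08 CPM. The part of these lists in the members' changes was not tested.

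**Figure D5:**
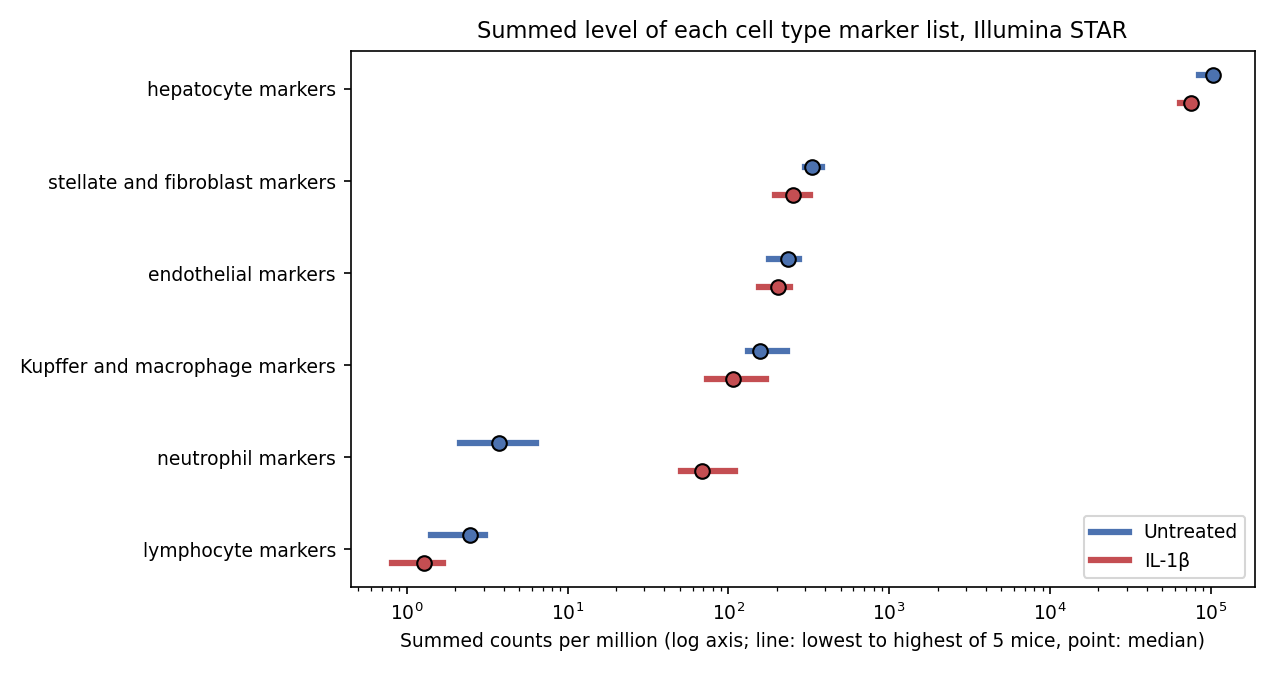
Summed CPM of each marker list (horizontal log axis) in the Illumina STAR table; lines run from the lowest to the highest of 5 mice and points mark the median, with untreated mice in blue and treated mice in red. The ranges are apart for neutrophil and hepatocyte markers and overlap for the other 4 lists.

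The genes whose levels followed each member most closely over the 10 mice were ranked among 10543 genes by the smaller of 2 Pearson correlations of log2 CPM, from the STAR tables of the 2 platforms. Both groups of mice enter these values, so a gene that changed with treatment scores high, and no test was made. For Timp1 they were Gbp6 (0.996), Lbp (0.994) and Saa3 (0.993), an interferon-inducible GTPase and acute-phase proteins. For Timp2 they were led by Angptl2 (0.947), for Timp3 by Pacsin2 (0.963), for Mmp14 by Parp1 (0.929) and for Mmp19 by Fgf1 (0.967). For Adamts1 they were led by Gata6 (0.943), and for Adamts9 by Asap2 (0.962). For Adamts4, Mmp7 (0.959) was among the 3 highest.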

How the data were processed

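RNA from the livers of 10 mice was sequenced on 2 platforms. The authors aligned the reads to mm9 with GSNAP, STAR 2.5.1b or STAR followed by Bowtie2 2.2.9. With PORT they removed ribosomal and mitochondrial reads, assigned reads to Ensembl genes and re-sampled each table to its smallest library. The deposited values are whole-number counts per gene, in 60 columns; whether an Illumina count is a read or a read pair is not given in the sources used here. Groups came from the sample titles, and nothing was left out of the tables.

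Genes that reached 5 reads or more in 5 samples of any table were tested, on the deposited counts, with edgeR 4.0.16 (R 4.3.3; TMM, quasi-likelihood, two-sided, Benjamini-Hochberg over 15578 genes, adjusted p under 0.05). Mean ± SD are over mice and fold changes ± SE. CPM used TMM library sizes, and RPKM merged exon lengths of the GENCODE vM1 annotation of mm9, an earlier release than the authors' gene models. The platform-by-treatment term was fitted to all 20 libraries made with 1 aligner, with mouse as a block. The mouse numbers in the titles pair the libraries of the same RNA, with correlations of 0.591 to 0.746 for 9 mice and 0.197 to 0.249 for UNT_9584. With each aligner, the Illumina library of UNT_9584 correlated most with the Ion Torrent library of another mouse. The pairing of UNT_9584 thus rests on its title. For this sample the paper also reports a lower correlation of counts across platforms and a shift in its Ion Torrent read lengths. edgeR was tested on simulated data. Alternatives were the rank-sum test used in the study's methods, limma-voom (limma 3.58.1), DESeq2 1.42.0, no TMM, other filters, no block, and leaving out each mouse. The rank-sum test and its log2 ratios used the deposited counts without further scaling. The Ion Torrent tables and the platform terms of the other aligners without UNT_9584, the rank-sum test in the other 5 tables and the term without block for the other aligners were added after the data were seen.

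The members and lists were chosen with earlier results of these data known. The named genes are the members, up to 3 genes of each list with the greatest absolute log2 fold change among those called, a mean count of 20 or more and groups apart, and Mmp2, Mmp8, Mmp9, Reck, Timp4, Syn1, Syn2 and Syn3. Syn2 had 2 reads in each group. Thsd4 matched 2 rows and was left out. Protein sequences were not used here. Some genes that the rule covers are not reported here.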

Additional observations from a re-analysis of the deposited data

Results flagged for a closer look

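In the 32 groups of 5 mice looked at (8 members, 2 treatments, the STAR tables of 2 platforms), 2 held a mouse whose gap to the others was large for the group's range by Dixon's test, which chance gives in about 1 of 20 groups. Both were UNT_9580. Its Adamts4 level in the Illumina STAR table was 0 CPM, against 0.0832 to 0.0929 in the other 4, a gap of 1 read. Its Adamts9 level in the Ion Torrent STAR table was 2.38 CPM (30 reads), against 1.19 to 1.33 CPM in the others, and it was still below every treated mouse there.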

How the results depend on the processing

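Of 231 pairs of a tested member and an alternative setting, over 29 settings, all 231 kept their direction and 225 their side of the threshold. The other 6 were all Mmp14, not called by the rank-sum test in the Illumina STAR (-0.77), Illumina STAR + Bowtie2 (-0.79), Ion Torrent GSNAP (-0.89) and Ion Torrent STAR + Bowtie2 (-0.93) tables, by limma-voom (-0.53) or without UNT_9575 (-0.42). Leaving out each mouse gave -0.71 to -0.42 for Mmp14 and 6.39 to 7.22 for Timp1. With edgeR's own filter Adamts4 was not tested. Without TMM, Mmp14 was at -0.72 and Adamts1 at 0.80. The rank-sum test, whose log2 values above are ratios of unscaled counts, called 1843 to 2296 genes higher over the 6 tables. The cause of these differences was not tested.

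The mouse pairs the libraries, and without the replicate block no platform term was called either; that of Timp1 was -0.93 with and without it. The sign for Adamts1 turned with GSNAP, at -0.0026 with the block and -0.0045 without it; without UNT_9584 it turned for Mmp14 with GSNAP (0.072) and for Adamts4 with GSNAP (0.090) and STAR + Bowtie2 (0.15). In the Illumina STAR and Ion Torrent STAR tables, untreated counts of 0 to 4 reads limit the precision for Timp1, Adamts4 and Mmp13.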
